A study of Mus musculus with 6 samples.

Results

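On the Affymetrix arrays used to profile mouse lung, 9160 of 45037 probe sets carried no gene symbol in the platform annotation, and 1250 of these (13.6%) had a mean deposited intensity of 100 or more over the 6 arrays. These 1250 probe sets, selected on that brightness, are described here beside the 16227 probe sets with exactly 1 symbol that reached the same intensity (46.4% of 34945). The annotation table lists none of the probe sets without a symbol, so they have no gene identifier, accession or genome position here and are called by their probe set numbers. They are unnamed here, which does not mean that no gene lies behind them.

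The study asked what loss of bone morphogenetic protein receptor type 2 (BMPR2) signalling in smooth muscle does to the lung. Each array held RNA from the whole lungs of 3 pooled mice, 18 mice in all, with 1 pool of females and 1 pool of males in each of 3 groups. The controls were transactivator-only mice. The male control pool was labelled SM22-rtTA only, while the female control pool was labelled only by its strain, FVB/N, and no activation time was given for either. The other groups were SM22-dnBMPR2 inducible transgenic mice activated for 1 week or for 8 weeks, and these mice had raised right ventricular pressure when they were killed. Ages were not stated. SM22 is a promoter active in smooth muscle, rtTA is a transactivator that needs an inducer, and dnBMPR2 is a dominant-negative form of the receptor. If the controls differed from the transgenic mice in age, strain, inducer or handling, the transgene and that difference cannot be told apart. The arrays measured the lung as a whole, not the smooth muscle that carried it.

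A probe set is a group of short oligonucleotides that together report 1 RNA. Arrays of this kind were designed from clusters of cDNA and expressed sequence tags, and a cluster that was never joined to a known gene can stay without a symbol. Such clusters can come from non-coding RNAs, from long or alternative 3' ends, from introns of unspliced RNA, or from genes that were annotated later. A probe set of a known gene also has no symbol here if the annotation table does not list it. The ending of the name says how specific the oligonucleotides are: those ending in _at match 1 transcript, those in _a_at match several transcripts of 1 gene, those in _s_at match several transcripts that can belong to different genes, and those in _x_at share oligonucleotides with unrelated sequences.

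The 1250 probe sets were dimmer than the named ones. Their median mean intensity was 206, against 332 for probe sets with 1 symbol, and the highest mean was 7715. Of the 1250, 750 reached 100 on all 6 arrays, and 6 were at the floor of the scale (log2 3.95) on at least 1 array. Averaged by group, 52 reached 100 in 1 group only, which was the control group for 41, the 1 week group for 8 and the 8 week group for 3. The group changes of these 52 are not independent of their selection. Just inside the limit lay 1451841_a_at, 1443862_at and 1446566_at, with fitted log2 changes at 8 weeks of 0.02, -0.83 and -0.17. Just outside it lay 1446958_at, 1439299_at and 1444113_at, with changes of -0.50, -1.68 and 0.03. Most of the 1250 (989, or 79.1%) had names ending in _at, compared with 69.2% of the probe sets with 1 symbol.

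The level of the unnamed probe sets as a whole was highest in the controls, lower at 1 week and lowest at 8 weeks. The median normalized log2 intensity over the 1250 was 8.01 in the female and 7.81 in the male control pool, 7.79 and 7.67 in the 1 week pools, and 7.40 and 7.57 in the 8 week pools. The 3 groups did not overlap, although the male control and the female 1 week pool lay close together. As group means these were 7.91 ± 0.14 for control, 7.73 ± 0.08 at 1 week and 7.48 ± 0.12 at 8 weeks (SD, n = 2 pools). For probe sets with 1 symbol the same medians lay between 8.35 and 8.37 in all 6 pools. Quantile normalization gives every array the same distribution, and most probe sets this bright have 1 symbol, so it holds their median nearly level. The distance between the sets was -0.34 in the female control pool and -0.97 in the female 8 week pool, with the male pools at -0.56 and -0.80.

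**Figure D1:**
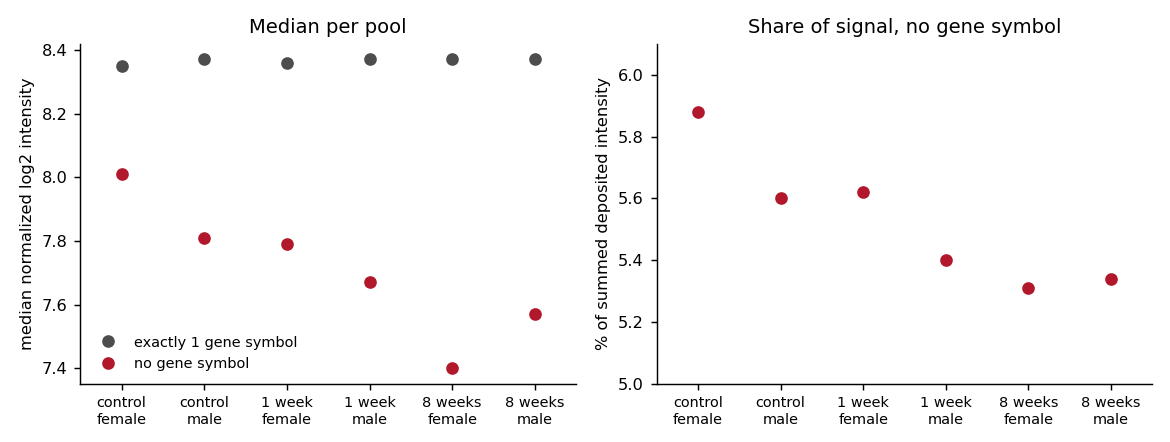
The left panel plots, for each of the 6 pools, the median normalized log2 intensity of the 1250 probe sets without a gene symbol (red) and of the 16227 with exactly 1 symbol (grey). The right panel plots the percentage of each array's summed deposited intensity that fell on the probe sets without a symbol, on an axis that starts at 5%. The red medians go from 8.01 in the female control pool to 7.40 in the female 8 week pool, while the grey medians stay between 8.35 and 8.37. The normalization holds the grey medians nearly level.

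The deposited values, before any normalization here, had the same order. The median over the unnamed probe sets was 274.74 and 228.62 in the female and male controls, 227.59 and 200.87 at 1 week, and 158.79 and 174.55 at 8 weeks. For probe sets with 1 symbol it also stepped down, by less, from 345.48 and 338.19 to 336.48 and 326.73 and then 319.29 and 313.36. Over all 45037 probe sets the median also differed between pools, from 63.4 in the female control to 50.5 in the female 8 week pool. The share of each array's summed intensity that fell on the unnamed probe sets was 5.88% and 5.60% in the controls, 5.62% and 5.40% at 1 week and 5.31% and 5.34% at 8 weeks. For this share the 1 week female pool lay above the male control. In whole lung RNA, fewer cells of a type and less RNA per cell cannot be told apart.

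At 8 weeks, 26 unnamed probe sets fell and 1 rose against control at an adjusted p below 0.05 (limma over all 27022 probe sets tested). Together these were 2.16% of the 1250, against 0.596% of all probe sets tested, where 0.389% were called lower and 0.207% higher. Among probe sets with 1 symbol, 30 fell and 30 rose. The 26 falls ranged from -1.30 to -3.23 on the log2 scale with a median of -1.80, and their adjusted p-values lay between 0.047 and 0.0499, just inside the threshold. In all 26, both 8 week pools lay below both controls. A call already requires a fall that is large and alike in both sexes, so this is not separate support. With a single array left out, the number of unnamed probe sets called was 0 without the female or the male control pool, without the female or the male 1 week pool, or without the female 8 week pool, and 200 without the male 8 week pool. It was also 0 without the term for sex, with ordinary least squares, with only the 4 arrays compared, or with dim probe sets kept in. Leaving out either 1 week pool and using only the 4 arrays compared give the same fit here, so these are not separate results. Each fit with an array left out has fewer residual degrees of freedom.

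The fold changes showed the same imbalance with no threshold on p. A fitted log2 change of -1 or lower was found in 224 of the 1250 (17.9%), against 372 of the 16227 with 1 symbol (2.29%) and a background of 4.39% over all probe sets tested. A change of 1 or higher was found in 7 (0.56%), against 1.2% of those with 1 symbol and a background of 1.63%. The 1250 include 41 that reached the intensity limit through the controls alone, which favours falls, and 3 through the 8 week group alone. They remain in all counts of large changes given here, and counts without them are not given. The median change was -0.16, with 66.6% of the unnamed probe sets below 0 and the 10th and 90th percentiles at -1.28 and 0.30. For probe sets with 1 symbol the median was 0.04, with 45.1% below 0 and percentiles of -0.46 and 0.43, and over all tested it was 0.03. The scaling moved both medians together. With the deposited values the members' median was -0.32 and that of all probe sets -0.13, and with arrays centred on their medians they were -0.05 and 0.14, so the distance was -0.19 under either scaling.

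The changes did not form a single shifted peak. In steps of 0.1 on the log2 scale, 138 unnamed probe sets lay between -0.1 and 0, the number went down to 22 between -0.8 and -0.7, and it went up again to 47 between -1.1 and -1.0. Most of the unnamed probe sets therefore lay near 0, with a second group about 1 log2 unit lower. No such second group was visible in the probe sets with 1 symbol.

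**Figure D2:**
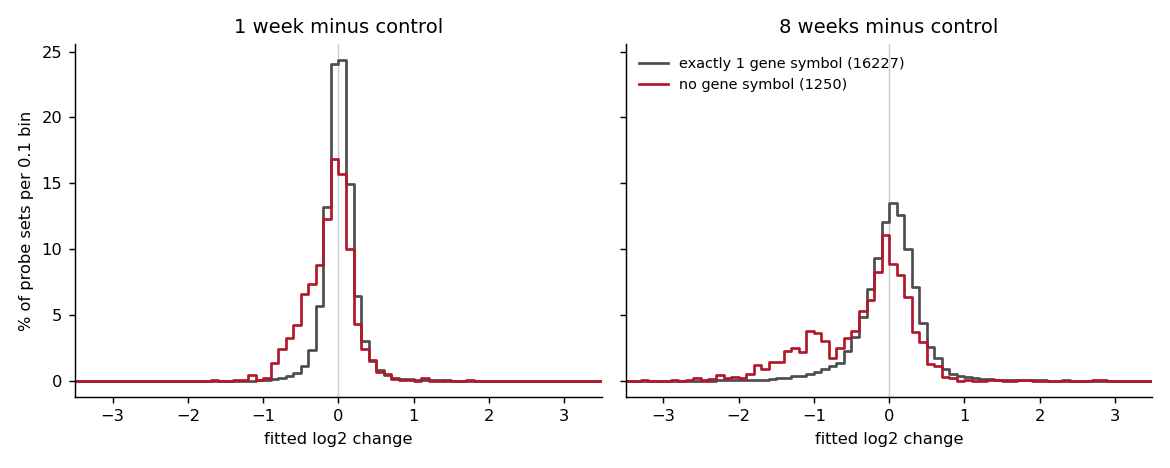
Each panel plots the percentage of probe sets per bin of 0.1 against the fitted log2 change, at 1 week (left) and 8 weeks (right) minus control, for the 1250 without a gene symbol (red) and the 16227 with exactly 1 (grey). At 8 weeks the red line has a second rise near -1, where 47 probe sets fall in the bin from -1.1 to -1.0, and at 1 week it has a shoulder below 0.

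Measured in each sex alone, large decreases were more frequent in the female pools. Each such change is 1 pool minus 1 pool, and the female and male controls were labelled differently. A sex difference therefore cannot be told apart from a difference between pools, and shares over all probe sets tested are not given. A log2 change of -1 or lower at 8 weeks was found in 318 unnamed probe sets in the female pools and 109 in the male pools, whereas for probe sets with 1 symbol the numbers were 501 and 496. The median change was -0.16 in females and -0.13 in males. In both sexes together, 83 unnamed probe sets (6.64%) had a change of -1 or lower, against 0.931% of those with 1 symbol and a background of 1.79%. A change of 1 or higher in both sexes was found in 6 (0.48%), against a background of 0.918%. Of the 83, 62 had the larger decrease in females. In the test of whether the transgenic change (both durations together) differed between the sexes, 0 unnamed probe sets and 0% of all probe sets passed, with a smallest adjusted p of 1. An unadjusted p below 0.05 was found in 28 unnamed ones (2.24%), near the background of 2.35%. The directions differed, with 8 higher and 20 lower in females among the unnamed, against 392 higher and 244 lower over all tested. The median of this difference was -0.10 for the unnamed, with 59.3% below 0, against 50.1% of all tested.

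Both 8 week pools lay below both controls in 471 unnamed probe sets (37.7%, background 18.8%) and above both in 152 (12.2%, background 23.0%). The full order, with both controls above both 1 week pools and these above both 8 week pools, was found in 139 (11.1%, background 3.10%). The opposite order was found in 18 (1.44%, background 3.35%). Among probe sets with 1 symbol the ordered shares were 2.39% falling and 3.9% rising.

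Of the unnamed probe sets that passed, 1459695_at had the largest fall. It had a normalized log2 intensity of 8.30 in the female and 7.64 in the male control, 6.79 and 6.75 at 1 week, and 4.74 in both 8 week pools. The groups did not overlap and stepped down in order. The 8 week change was -3.23 ± 0.21 (SE, adjusted p = 0.047), with -3.56 in females and -2.90 in males.

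1445773_at had 8.19 and 7.43 in the female and male controls, 6.83 and 6.60 at 1 week and 5.64 and 4.80 at 8 weeks, a change of -2.59 ± 0.20 (adjusted p = 0.047). 1439643_at had 8.19 and 7.81, then 6.92 and 7.19, then 5.18 and 5.73, a change of -2.55 ± 0.25 (adjusted p = 0.047). Both stepped down from control to 1 week to 8 weeks with no overlap between neighbouring groups. 1445204_at (8.14 and 8.07, 7.67 and 7.31, 6.12 and 5.54), with a change of -2.28 ± 0.17, had the same order. So did 1457508_at (7.50 and 7.41, 6.73 and 6.54, 5.01 and 5.36), with -2.27 ± 0.18, and 1435046_at (8.46 and 8.38, 7.98 and 7.82, 6.37 and 6.55), with -1.96 ± 0.15. In these 3, the female and male controls were almost level.

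1440685_at was the brightest of the 26, with a mean intensity of 689. It had 10.51 and 9.73 in the female and male controls, 9.57 and 9.01 at 1 week and 7.85 and 7.91 at 8 weeks, a change of -2.24 ± 0.24 (adjusted p = 0.0497). The female pool had the higher value in controls and at 1 week, and both sexes were level at 8 weeks.

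3 others of the 10 largest falls that passed lacked the full order. 1444266_at had 9.15 and 8.33 in the controls, 8.98 and 7.80 at 1 week and 6.41 and 5.98 at 8 weeks, a change of -2.55 ± 0.21. Its female 1 week pool lay within the range of the controls. 1438301_at had 7.76 and 6.97, then 7.13 and 6.02, then 5.89 and 4.61, a change of -2.12 ± 0.17, with the female pool above the male in every group. 1459557_at had 7.96 and 6.94, then 8.26 and 7.50, then 5.85 and 4.57. Its change was -2.24 ± 0.17 at 8 weeks and 0.43 at 1 week, the 1 case among the 26 whose 1 week value was not below control, and it too was higher in females in every group.

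**Figure D3:**
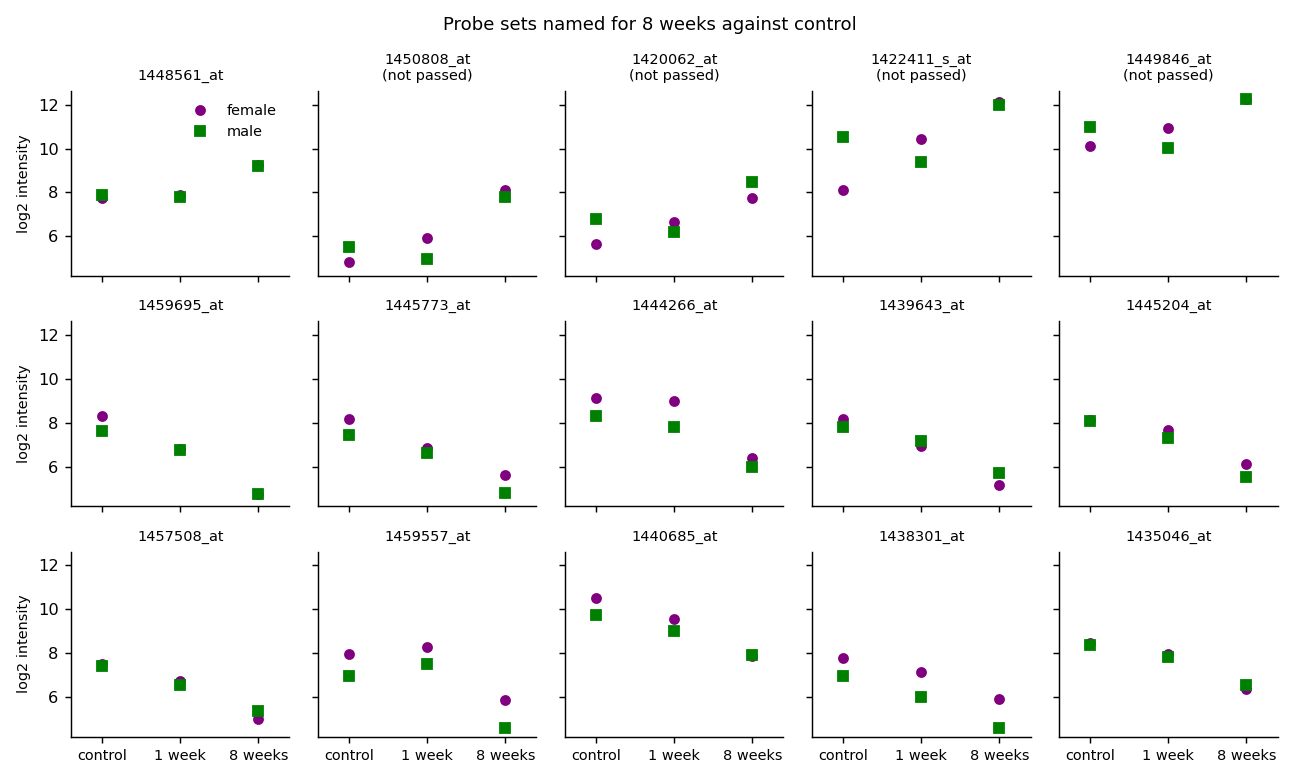
Each panel plots the normalized log2 intensity of 1 probe set in the female (circle) and male (square) pool of each group, all on 1 scale. The top row holds the 5 probe sets named as higher at 8 weeks, of which only 1448561_at passed, and the lower rows hold the 10 largest falls among those that passed, such as 1459695_at with 8.30 and 7.64 in the controls and 4.74 in both 8 week pools.

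The remaining 16 falls lay between -1.30 (1438257_at) and -1.91 (1459008_at). In 25 of the 26 the 1 week change was also below 0, and 17 of the 26 had the full order from control to 1 week to 8 weeks. The same shares among all probe sets called are not given here, and both changes share the control pools. They were dim as a rule, with a median mean intensity of 142 and 23 of 26 under 300, yet none was at the floor on any array. These means include the low 8 week values. The ending was _at in 24 and _a_at in 2.

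Another 11 unnamed probe sets had fitted changes as low as those of the 10 named, but did not pass. The lowest were 1442276_at with -2.87 ± 0.47 (adjusted p = 0.0757) and 1440573_at with -2.67 ± 0.48 (adjusted p = 0.0849), both chosen after their values were seen. In these the sexes differed more, with -3.85 in females and -1.89 in males for 1442276_at and -3.62 and -1.72 for 1440573_at. In all 11 the female change was the larger.

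1448561_at was the 1 unnamed probe set that rose at 8 weeks. Its log2 intensity was 7.75 and 7.90 in the controls, 7.89 and 7.81 at 1 week and 9.26 and 9.22 at 8 weeks, a change of 1.42 ± 0.14 (adjusted p = 0.047). The control and 1 week pools were close together, and the 8 week pools stood clear of them in both sexes.

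The other 4 named as higher had larger or similar changes but did not pass. Of these, 1450808_at and 1420062_at reached the intensity limit through the 8 week group alone, so their rises are not independent of the selection. 1450808_at had 4.81 and 5.52 in the controls, 5.94 and 4.97 at 1 week and 8.13 and 7.81 at 8 weeks, a change of 2.81 ± 0.41 (adjusted p = 0.0661). 1422411_s_at had 8.12 and 10.52, then 10.45 and 9.40, then 12.11 and 11.98, a change of 2.73 ± 0.83 (adjusted p = 0.16). Here the female control was far below the male control, so the change was 3.99 in females and 1.47 in males, and the fitted change was 1.23 without the female and 4.23 without the male control. 1449846_at (10.13 and 10.97, 10.96 and 10.03, 12.25 and 12.25) had a change of 1.70 ± 0.43 (adjusted p = 0.125), or 1.05 without the female control. 1420062_at (5.63 and 6.81, 6.67 and 6.19, 7.73 and 8.48) had 1.89 ± 0.41 (adjusted p = 0.108). All 4 were lower in the female than in the male control and higher in the female than in the male 1 week pool.

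Markers of macrophages were higher at 8 weeks as well. Each gene named here and below was read from 1 probe set, and any other probe sets of the same gene are not given. The summed deposited intensity of the 10 measured macrophage genes (such as Chil3, Marco and Siglecf) was 1278 and 2226 in the female and male controls, 2845 and 1681 at 1 week and 8422 and 6208 at 8 weeks. The sum was thus lower in the female than in the male control and higher in the female than in the male 1 week pool, although single genes such as Marco and Ctsk were higher in the female control. All 10 were higher at 8 weeks in both sexes with a median log2 change of 1.97, though none passed. The 8 measured neutrophil genes were also all higher, with sums of 3512 to 4612 in the control and 1 week pools and 10951 to 11120 at 8 weeks, and 3 of them passed. The 5 genes of dividing cells had sums of 393 and 331 in the female and male controls, 605 and 840 at 1 week and 817 and 984 at 8 weeks.

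Heart muscle genes were lower at 8 weeks, and unevenly so between the sexes. The 10 cardiac genes (such as Myh6 and Tnnt2) summed to 11926 to 16906 in the control and 1 week pools, to 2610 in the female 8 week pool and to 6101 in the male one. 9 of the 10 were lower in both sexes, with a median change of -1.60, and none passed. The female 8 week pool thus had both the lowest cardiac sum and the lowest median of the unnamed probe sets. At 1 week the cardiac sums were 14505 and 16906, above those of the controls, while the median of the unnamed probe sets was below the controls. The 5 smooth muscle genes summed to 7921 to 10899 in the control and 1 week pools and to 6058 to 7175 at 8 weeks. The 10 lung epithelial and endothelial genes (such as Sftpc and Cdh5) summed to 51378 to 58818 in all pools, with a median change of 0.00, and none passed. No gene of these lists was at the lowest deposited value on every array. Their part in the changes of the unnamed probe sets was not tested.

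Some long RNAs that stay in the nucleus, a list chosen after these values were seen, were lower at 8 weeks as well. Malat1, a nuclear non-coding RNA, fell from 12.34 and 11.79 in the female and male controls to 10.68 and 10.25 at 8 weeks, a change of -1.60 ± 0.15 (adjusted p = 0.047), with 12.14 and 11.89 at 1 week. Kcnq1ot1, an imprinted antisense RNA, had a change of -0.71 ± 0.22 (adjusted p = 0.158) and Neat1, which builds nuclear paraspeckles, one of -0.44 ± 0.16 (adjusted p = 0.194). Xist, which coats the silenced X chromosome in females, had 11.05, 10.73 and 9.76 in the female control, 1 week and 8 week pools. Meg3, an imprinted non-coding RNA, had a change of -0.17. 4 of these 5 were lower in both sexes at 8 weeks and 1 passed. Xist is among the 4, but its male values were low throughout (5.80 in the control, 5.07 at 8 weeks), so its male change says little. Whether they share anything with the unnamed probe sets was not tested.

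Fitted changes of -1 or lower were frequent in dim probe sets with names ending in _at and few in bright ones. The mean intensity includes the 8 week arrays, so a fall at 8 weeks itself lowers it. Part of this gradient can therefore be built in, and how much was not tested. Among the 608 unnamed probe sets with a mean intensity of 100 to 200, the median change at 8 weeks was -0.42 and 25.7% had a fitted change of -1 or lower. For the 180 between 200 and 300 these values were -0.22 and 23.3%, for the 147 between 300 and 500 they were -0.03 and 10.9%, and for the 160 between 500 and 1000 they were -0.05 and 6.25%. Of the 155 at 1000 or more, 0 had a change of -1 or lower. Among probe sets with 1 symbol the share was 3.55% of 4672 between 100 and 200 and 1.2% of 2495 at 1000 or more.

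By ending, 216 of 989 unnamed _at probe sets (21.8%) had a change of -1 or lower, against 2.63% of those with 1 symbol. Of the 119 ending in _a_at 4 did (3.36%), of the 89 ending in _x_at 4 (4.49%) and of the 53 ending in _s_at 0. For probe sets with 1 symbol and these endings the shares were between 1.43% and 1.6%. Within the _at probe sets the gradient with brightness remained, from 27.8% of 551 between 100 and 200 to 4.6% of 174 at 500 or more. It has the same limit, since the mean is the same one.

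The probe set number also separated the unnamed probe sets. This division was made after the values were seen, and the numbers are catalogue numbers with no meaning of their own here. Of the 107 numbered 1415000 to 1419999, 0 had a change of -1 or lower, and their median was 0.10. Of the 231 numbered 1440000 to 1444999, 81 (35.1%) did, with a median of -0.72. In that range, which held 18.5% of the unnamed probe sets but 2.63% of those with 1 symbol, 40 of 427 probe sets with 1 symbol (9.37%) also had such a change. The next highest shares of unnamed probe sets were 25.7% of 167 numbered 1455000 to 1459999 and 25.3% of 154 numbered 1445000 to 1449999.

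A related class, also chosen after the values were seen, was formed by the 298 probe sets whose 1 symbol is a clone or predicted gene name. These are named sequences of little known function. Their median change at 8 weeks was 0.02, and 12 (4.03%) had a change of -1 or lower.

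**Figure D4:**
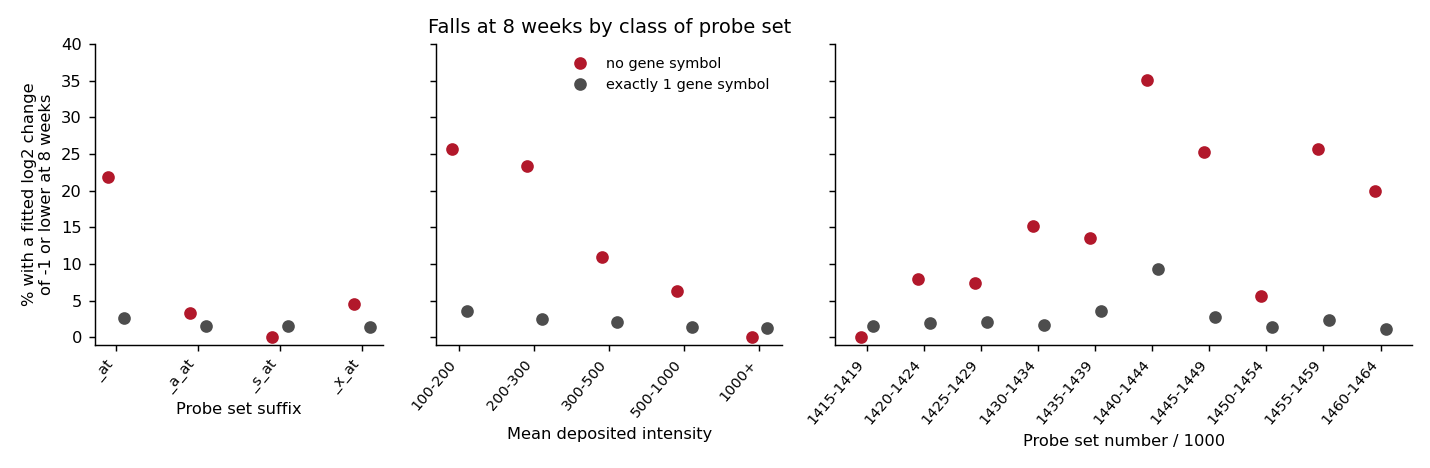
Each point is the percentage of a class of probe sets with a fitted log2 change of -1 or lower at 8 weeks against control, for probe sets without a symbol (red) and with exactly 1 symbol (grey), by ending of the name, by mean deposited intensity and by probe set number (divided by 1000). The red points are at 21.8% for _at, at 25.7% in the dimmest class and at 35.1% for numbers 1440000 to 1444999, while the highest grey point is 9.37%. Mean intensity includes the 8 week arrays, so a fall itself moves a probe set towards the dimmer classes.

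The brightest unnamed probe sets barely differed between pools after normalization. Quantile normalization gives each rank the same value on every array, which limits changes at the top ranks. The 10 brightest had mean intensities from 5489 to 7715, and their 8 week changes lay between -0.11 (1437666_x_at) and 0.00 (1459986_a_at). 1416624_a_at, the brightest, had 12.95 and 12.90 in the controls, 12.93 and 12.90 at 1 week and 12.86 and 12.95 at 8 weeks. Its deposited values ran from 7134.25 in the male 1 week pool to 8163.76 in the male 8 week pool. 6 of the 10 end in _x_at, 3 in _a_at and 1 in _s_at, so none ends in _at.

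At 1 week, no unnamed probe set passed against control, nor did any probe set tested (0%). The smallest adjusted p among the unnamed was 0.894, and 113 had an unadjusted p below 0.05. Of these 24 were higher (1.92%, background 3.03%) and 89 lower (7.12%, background 2.47%). Still, 64.2% had a change below 0, with a median of -0.08 in females and in males, against a median of 0.01 for probe sets with 1 symbol. The median was -0.18 for those with a mean intensity of 100 to 200 and -0.01 for those at 1000 or more, the same gradient as at 8 weeks on a smaller scale. That mean includes the 1 week arrays, so this gradient can be partly built in too. The 1 week and 8 week comparisons share the 2 control pools, so the values of one are not independent of the other. A change of -1 or lower in both sexes was found in 1 unnamed probe set (0.08%, background 0.0518%), and a change of 1 or higher in 0 (background 0.0888%).

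Among those named at 1 week, 1440196_at had 7.87 and 7.13 in the controls, 6.85 and 5.82 at 1 week and 7.18 and 7.44 at 8 weeks, a change of -1.16 ± 0.33 (adjusted p = 0.894) that was back to -0.19 at 8 weeks. 1418493_a_at was the counterpart on the higher side, with 5.90 and 6.69, then 7.85 and 7.66, then 6.73 and 6.80. Its 1 week change was 1.46 ± 0.26 (adjusted p = 0.894) and its 8 week change 0.47. In both, the 1 week pools lay outside the range of the other 4. 1459695_at, with the largest fall at 8 weeks, had a 1 week change of -1.20 ± 0.21 (adjusted p = 0.894). The other named probe sets had changes of -1.11 (1425918_at), -0.99 (1438259_at) and -0.90 (1444525_at) on the lower side, and of 1.71 (1442443_at), 0.98 (1435990_at), 0.82 (1433351_at) and 0.63 (1456169_at) on the higher. The intensity limit was reached by 1418493_a_at through the 1 week group alone and by 1444525_at through the controls alone. The standard error of 1442443_at was 0.86, and its change was 2.79 in females and 0.63 in males. Single arrays moved some of these values: 1442443_at had 0.25 without the female and 3.17 without the male control, 1425918_at had -0.61 without the male 1 week pool, and 1440196_at had -0.77 without that pool.

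Between 1 week and 8 weeks, again no unnamed probe set and no other probe set passed (0%), with a smallest adjusted p of 0.101 among the unnamed. There were 281 with an unadjusted p below 0.05, 51 higher (4.08%, background 9.32%) and 230 lower (18.4%, background 9.18%) at 8 weeks. The median change was -0.13, with -0.17 in females and -0.07 in males, against 0.02 for probe sets with 1 symbol. A change of -1 or lower in both sexes was found in 36 (2.88%, background 1.25%), and a change of 1 or higher in 7 (0.56%, background 0.759%). These values share the 8 week pools with the comparison against control. Among those named by the rule, which ranks by the smaller of the sexes' changes, 1459557_at had -2.67 ± 0.17 (adjusted p = 0.101), 1444266_at -2.20 ± 0.21 and 1459695_at -2.03 ± 0.21. Outside the rule, and chosen after its value was seen, 1441388_at had -2.64 ± 0.51 (adjusted p = 0.133). 1458700_at (7.94 and 6.91 in the controls, 7.18 and 7.08 at 1 week, 5.21 and 5.39 at 8 weeks) had -1.83 ± 0.31, and 1444190_at had -1.66 ± 0.42. On the higher side 1450808_at had 2.51 ± 0.41, 1422411_s_at 2.12 ± 0.83, 1449846_at 1.75 ± 0.43, 1418949_at 1.69 ± 0.61 and 1448561_at 1.39 ± 0.14. Of these, 1450808_at reached the intensity limit through the 8 week group alone. Without the male 1 week pool, 1422411_s_at had 1.03 and 1449846_at 1.07, and without the female 1 week pool 1422411_s_at had 3.22. 1418949_at had 0.99 without the male 8 week pool. This last probe set was high in the female control (8.58) and in both 8 week pools (7.66 and 7.55) and low in the male control (6.06) and both 1 week pools (6.15 and 5.69), so its groups overlapped.

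Between females and males, 110 of 1250 unnamed probe sets passed (8.8%), close to the background of 8.30% over all probe sets tested. They were 62 higher and 48 lower in females, against a background of 3.46% higher and 4.85% lower. For probe sets with 1 symbol it was 1098 (6.77%), 391 higher and 707 lower. All 110 differed in the same direction in all 3 groups, which the test largely requires of a call. The difference was 1 or more on the log2 scale in 56, of which 40 were higher in females and 16 higher in males, and the median size over the 110 was 1.01. The same counts for all probe sets tested are not given here, so a skew particular to the unnamed cannot be read from them. The 3 female pools lay above the 3 male pools in 171 unnamed probe sets (13.7%, background 13.2%) and below them in 173 (13.8%, background 17.2%). The number called depended on the arrays: it was 0 without the female or the male control pool, 2 without either 1 week pool and 76 without either 8 week pool. Leaving out either pool of a group gives the same fit for sex, so these are 3 fits, each with fewer residual degrees of freedom. The number called was also 0 with ordinary least squares or with dim probe sets kept in.

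The largest difference was in 1426438_at, which was at the floor of 3.95 in all 3 female pools and had 10.38, 10.43 and 10.50 in the male control, 1 week and 8 week pools. 1426439_at was likewise at the floor in all female pools, with 9.98, 9.81 and 9.86 in males, and 1452077_at was at the floor in females with 8.02, 7.66 and 7.42 in males. The fitted differences of -6.49 ± 0.11 (adjusted p = 0.00102), -5.94 ± 0.11 (adjusted p = 0.00102) and -3.75 ± 0.15 (adjusted p = 0.00777) are lower bounds in size, since the female values are limits. These 3 were the only unnamed probe sets at the floor in all female pools, and 0 were at the floor in all male pools. Genes of the Y chromosome had the same form: Eif2s3y had a difference of -5.58, Uty of -3.90 and Kdm5d of -3.49. No genome position is given here for the 3 unnamed probe sets.

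Next on the male side came 1457250_x_at, with 4.26, 3.95 and 4.94 in the female control, 1 week and 8 week pools and 7.77, 7.65 and 7.03 in the male ones. The difference was -3.10 ± 0.35 (adjusted p = 0.0205), and 1 female value was at the floor. 1438786_a_at had 6.80, 6.86 and 6.85 in females and 8.71, 8.25 and 8.79 in males, a difference of -1.74 ± 0.15 (adjusted p = 0.0146). In both, the sexes did not overlap, and in 1438786_a_at the 3 female pools were almost equal.

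On the female side, 1432702_at had 8.71, 7.79 and 8.16 in the female control, 1 week and 8 week pools and 4.79, 4.12 and 4.43 in males, a difference of 3.77 ± 0.11 (adjusted p = 0.00455). Xist, for comparison, had a difference of 5.08 in the 1 probe set used for it here. 1443330_at had 7.83, 8.30 and 8.05 in females and 5.04, 5.64 and 5.01 in males, a difference of 2.83 ± 0.13 (adjusted p = 0.00972). 1446347_at had 7.65, 7.78 and 7.43 against 4.95, 4.77 and 5.19, a difference of 2.65 ± 0.18 (adjusted p = 0.0126). In these 3 the difference between the sexes was larger than the range of the pools of either sex.

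1447531_x_at had 7.19, 7.77 and 7.19 in females and 5.07, 4.95 and 5.18 in males, a difference of 2.32 ± 0.19 (adjusted p = 0.0137). 1440367_at was less even, with 7.00, 8.37 and 7.22 in females and 4.71, 4.25 and 4.79 in males, and its difference of 2.95 ± 0.39 (adjusted p = 0.0275) was largest at 1 week. Of the 110 unnamed probe sets that differed between the sexes, 4 also passed at 8 weeks against control. Among them were 1459557_at and 1438301_at, higher in females by 1.02 (adjusted p = 0.029) and 1.06 (adjusted p = 0.0264). The same overlap over all probe sets tested is not given here, so whether 4 is many cannot be judged.

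**Figure D5:**
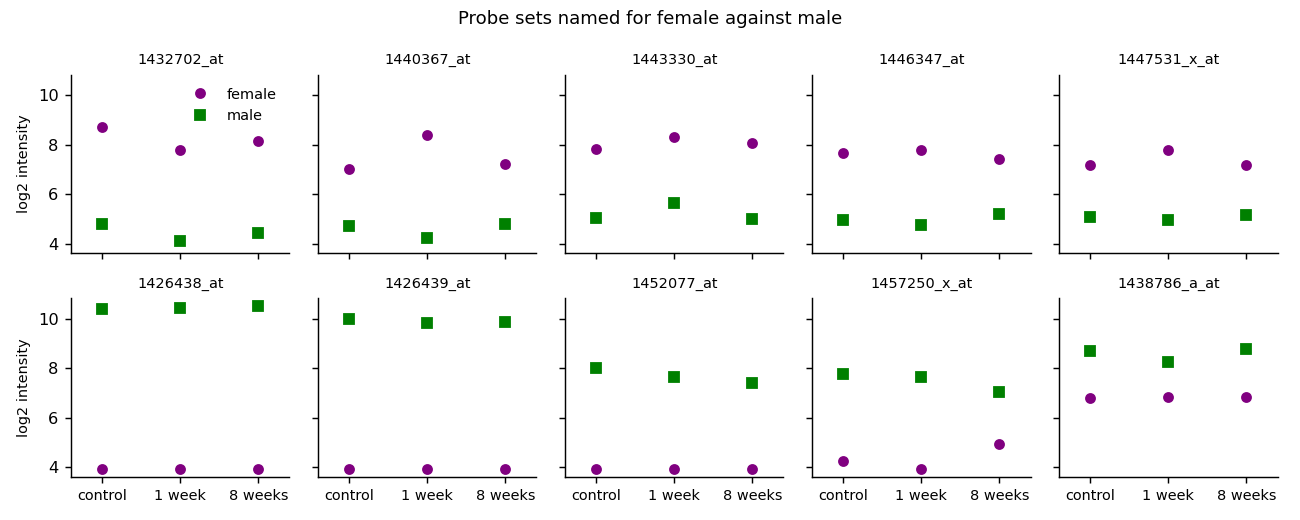
Each panel plots the normalized log2 intensity of 1 probe set in the female (circle) and male (square) pool of each group, all on 1 scale. The top row holds the 5 largest differences with higher values in females and the bottom row the 5 with higher values in males, of which 1426438_at, 1426439_at and 1452077_at are at the floor of 3.95 in every female pool.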

How the data were processed

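The authors deposited 1 linear signal intensity per probe set and array, from 10 to 11513.01. How these intensity values were summarised and scaled is not given in the sources used here. The labels' protocols describe how lung was frozen and RNA extracted for the 4 transgenic pools and not for the controls. From the deposited intensities the 6 arrays were quantile normalized, a floor was set at the 20th percentile (15.46), and then log2 values were computed. Probe sets with a mean above the 40th percentile were tested, 27022 of 45037, which included all 1250 without a symbol and all 16227 with 1 symbol described here.

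Each probe set was fitted in limma 3.58.1 (R 4.3.3) with terms for group and sex over 6 arrays (2 residual degrees of freedom, prior 2.77), and a second model gave the interaction of transgene and sex (prior 2.48). Benjamini-Hochberg adjustment ran over all 27022, which makes many adjusted values equal, and the threshold was 0.05. With 1 pool per sex and group, p-values measure how far the female and male changes differ, which mixes pool spread with any sex difference in response, and the number of arrays limits the precision. The model was tested on simulated data before use.

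Probe sets were named by a fixed rule. For 8 weeks it took up to 10 each way that passed in the same direction in both sexes, filled to 5 by the largest value of the smaller sex's change, and for other comparisons 5 each way. The 10 brightest and 3 on either side of the intensity limit were added. Members, lists and rules were chosen with earlier results of these data known. Alternatives changed the scaling, floor, filter, suffixes, moderation, terms, arrays and intensity limit. Figures used Python 3.11.15 and matplotlib 3.10.9. Sequences of the probe sets were not used here.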

Additional observations from a re-analysis of the deposited data

How the results depend on the processing

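The number of unnamed probe sets called depended strongly on the processing. At 8 weeks, 27 were called as reported. The number was 73 with arrays centred on their medians, 66 with the deposited values, 66 with log2(value + 16), 62 with a floor at the 40th percentile, 81 with a filter at the 60th, 91 with only probe sets of 100 or more tested, and 227 with trend and robust moderation. All 27 were among those called in each of these except the filter at the 60th percentile, which held 22 of them. The number was 0 with no filter, no sex term, ordinary least squares or only the 4 arrays compared, and ranged from 0 to 200 with 1 array left out. With 8 weeks against 1 week, 0 called as reported became 10 under the stricter filter, 15 where the test was limited to 100 or more and 65 under trend and robust moderation, and stayed at 0 with any array left out. Between females and males, 110 became 183, 185 and 234 under those 3 settings, 0 with no filter or ordinary least squares, and 0 to 76 with 1 array left out. With a limit of 50, 200 or 100 on every array for membership, the calls were 46, 9 and 4 at 8 weeks and 303, 44 and 51 for sex. The last limit by construction removes probe sets that fell below it in 1 group. For other moves, where no cause is given, the cause was not tested. The calls over all probe sets under each alternative are not given here. These counts therefore do not show whether the unnamed were called more often than the rest. No alternative gave a call at 1 week or for the interaction, which could not be fitted without either control pool.

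At 8 weeks the median change of the unnamed probe sets minus that of all tested lay between -0.16 and -0.27 under every alternative to the scaling, filter, model or arrays. Of 769 repeats of the named values, 595 stayed on their side of the threshold, 155 lost it, 19 gained it and 0 changed sign. The files give no background signal, so the floor was the only guard for dim probe sets. The median for females against males was 0.03 as reported and ranged from -0.03 to 0.09 with 1 array left out, so its sign was not fixed. The labels give no replicate numbers, and the term for sex matches the pools across groups.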

Other observations

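The dimmer probe sets without a symbol had the same imbalance. Of the 1366 tested with a mean intensity of 50 to 100, 210 (15.4%) had a fitted log2 change of -1 or lower at 8 weeks and 15 (1.1%) one of 1 or higher. Their median change was -0.22 at 8 weeks and -0.13 at 1 week, and 18 fell and 1 rose at 8 weeks at an adjusted p below 0.05 in limma. For the 4624 probe sets with 1 symbol at that brightness, the median was 0.11, with 213 (4.61%) lower by 1 or more, 154 (3.33%) higher by 1 or more, and 13 called lower and 14 higher.

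Probe sets that carry several symbols had as many large decreases as increases. Of the 487 with a mean intensity of 100 or more, 7 (1.44%) had a change of -1 or lower and 7 (1.44%) one of 1 or higher. Their median was 0.06, and 1 fell and 5 rose at 8 weeks.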
